A study of Mus musculus with 135 samples.

Results

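Rorb, Cux2, Fezf2, Bcl11b, Tbr1, Foxp2, Rspo1, Myl4 and Lamp5 are genes used to tell the layers and projection neurons of the cerebral cortex apart, and their read counts were followed here in every cortex and hippocampus library of the series. They are 9 of the 55416 genes in each count table and were chosen by name, with their levels in cortex and hippocampus libraries already known. The levels by tissue, including those of libraries whose regional signal did not match the label, are therefore values that chose the genes and are given as a description with no test. The symbols of 8 members matched rows of the tables. The table writes Bcl11b under its older name Rit1, which it gives to 2 rows, so Bcl11b was found by its Ensembl identifier.

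The neocortex is built of layers, and the neurons of each layer send their axons to different targets. Transcription factors made by young neurons set these fates and stay on in the adult, so that their messenger RNA tells which layers a piece of tissue holds. Several of the factors are not limited to the neocortex: Bcl11b is also made by granule cells and pyramidal neurons of the hippocampus and by the spiny projection neurons of the striatum, and Foxp2 by striatal neurons. The striatum lies directly beneath the cortex, and the hippocampus beside it, so that a dissected piece can carry some of its neighbour.

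The mice were adult male Townes mice, whose own globin genes have been replaced by human ones. SS mice make sickle hemoglobin and AA mice make normal adult hemoglobin. All groups share this replacement, and no group is a mouse without it. RSD is repeated social defeat, in which an aggressive male is placed daily in the home cage, and minocycline, an antibiotic that crosses into the brain, was given in the drinking water. Libraries of tissue labelled cort came from 12 AA mice, 8 SS mice, 3 AA + RSD and 6 SS + RSD mice, 1 mouse with AA + minocycline and 4 with SS + minocycline, and 18 AA and 14 SS mice that had both RSD and minocycline. Libraries labelled hip came from 11 AA and 7 SS mice, and the remaining groups were as large as in cort. Each library is 1 mouse, and 64 mice gave both tissues. Reads on genes ranged from 16295042 to 107713193 per cort library and from 12869149 to 68731008 per hip library. In each tissue, 2 further libraries that bear different group labels held identical counts and were left out. CPM are the reads of a gene scaled to a common total of reads on genes in every library, and RPKM are CPM per kilobase of annotated exons.

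2 sets of libraries have to be named before the results, because many of the values turn on them. The first is the pair labelled 9674, an AA + RSD mouse. Its cort library held 811 CPM summed over 11 hippocampal subfield markers, where the other cort libraries reached 289, and its hip library held 205, where the lowest of the other hip libraries held 583. The second set is 3 cort libraries with over 900 CPM summed over 8 striatal markers, at 1560 in 9621 (SS + RSD), 1206 in 9813 and 941 in 9890 (both SS + RSD + minocycline), against a median of 190 over the 66 cort libraries. All stayed under their labels, and results that rest on them are given with and without them. The genes were chosen with the mismatch of such libraries known, so nothing is read from group calls that rest on 9674.

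Short stretches upstream of the start sites are shown for 3 members that behave differently below: Rspo1, among the genes with the widest gap between cort and hip, Bcl11b, the member with the reverse gap, and Cux2, whose alternative start carries the only matches found among the motifs searched. The sequences are those of RefSeq on GRCm38.p6, 250 bases up to the annotated start, with the positions given in that build.
Rspo1, chr4:124986180-124986429, plus strand: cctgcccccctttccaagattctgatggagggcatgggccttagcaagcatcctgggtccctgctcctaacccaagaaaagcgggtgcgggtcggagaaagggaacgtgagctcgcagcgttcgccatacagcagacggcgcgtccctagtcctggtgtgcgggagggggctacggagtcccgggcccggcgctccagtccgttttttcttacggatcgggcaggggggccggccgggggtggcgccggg
Bcl11b, chr12:108003415-108003664, minus strand: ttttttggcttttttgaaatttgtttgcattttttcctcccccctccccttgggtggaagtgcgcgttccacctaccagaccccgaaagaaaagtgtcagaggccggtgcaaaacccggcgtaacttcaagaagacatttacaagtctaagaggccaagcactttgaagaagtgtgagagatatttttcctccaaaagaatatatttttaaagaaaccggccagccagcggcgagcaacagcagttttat
Cux2, alternative start, chr5:122047826-122048075, minus strand: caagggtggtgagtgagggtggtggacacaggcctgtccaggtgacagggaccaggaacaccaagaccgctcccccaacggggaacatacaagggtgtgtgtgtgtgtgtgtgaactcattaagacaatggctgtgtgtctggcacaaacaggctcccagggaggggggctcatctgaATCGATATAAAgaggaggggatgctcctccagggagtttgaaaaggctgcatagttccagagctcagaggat

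The capitals in the Cux2 stretch mark ATCGAT, the core bound by Cut-repeat proteins, and TATAAA, which overlap each other. ATCGAT on either strand is held by 0.728% of 32851 such windows and TATAAA by 12.4%. In the 11 windows listed for 8 members (the table holds none for Foxp2), the ROR half-site AGGTCA, the T-box half-site GGTGTGA and the forkhead core TGTTTAC were not found, against 14%, 3.33% and 3.17% of all windows. A match of letters is a description and not a binding site.

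In AA mice, 7 of the 9 members had every cort library above every hip library. This was so of 5.3% of the 17665 genes that passed the filter in these libraries, and since the genes were chosen with this difference known, nothing is read from the count. Rspo1, a secreted protein that raises Wnt signaling, had 15.7 ± 2.46 CPM (SD, n = 12) in cort and 1.77 ± 0.75 CPM (n = 11) in hip. Myl4, a myosin light chain known from embryonic muscle and the heart atrium, had 18.2 ± 7.77 and 1.73 ± 0.783 CPM. The mean difference in log2 CPM was 3.23 for Rspo1 and 3.38 for Myl4.

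The upper layers are marked by Cux2, a homeodomain factor, by Rorb, a nuclear receptor of the input layer, and by Lamp5, a membrane protein of endosomes that also marks a class of interneurons. Cux2 had 95.1 ± 14 CPM in AA cort and 28.8 ± 7.5 CPM in AA hip. Rorb had 28.7 ± 4.58 and 13 ± 1.93 CPM, so that its gap, 1.17 in log2 CPM, was the narrowest of the 7. Lamp5 had 262 ± 35.5 and 44.7 ± 8.25 CPM.

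The deep layers are marked by Tbr1, a T-box factor of neurons that project to the thalamus, and by Foxp2, a forkhead factor of the same neurons. Tbr1 had 137 ± 15.6 CPM in AA cort and 42.6 ± 8.33 CPM in AA hip. Foxp2 had 11.3 ± 2.52 and 1.36 ± 0.681 CPM. For both, the lowest cort library (110 and 7.46 CPM) lay above the highest hip library (57.8 and 2.48 CPM).

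The other two members are zinc-finger factors of neurons that project to the brainstem and spinal cord, and neither marked the cortex in these libraries. Fezf2, which specifies those neurons, had 44.9 ± 6.8 CPM in AA cort and 36.5 ± 8.7 CPM in AA hip, with ranges of 32.3 to 58 and 19.3 to 48.9 CPM that overlap. Bcl11b, which acts downstream of it, ran the other way, with 53.4 ± 7.43 CPM in cort and 134 ± 18.2 CPM in hip. Its highest cort library had 70.5 CPM and its lowest hip library 113 CPM. Such an order, with every hip library on top, was seen in 4.21% of the genes.

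**Figure D1:**
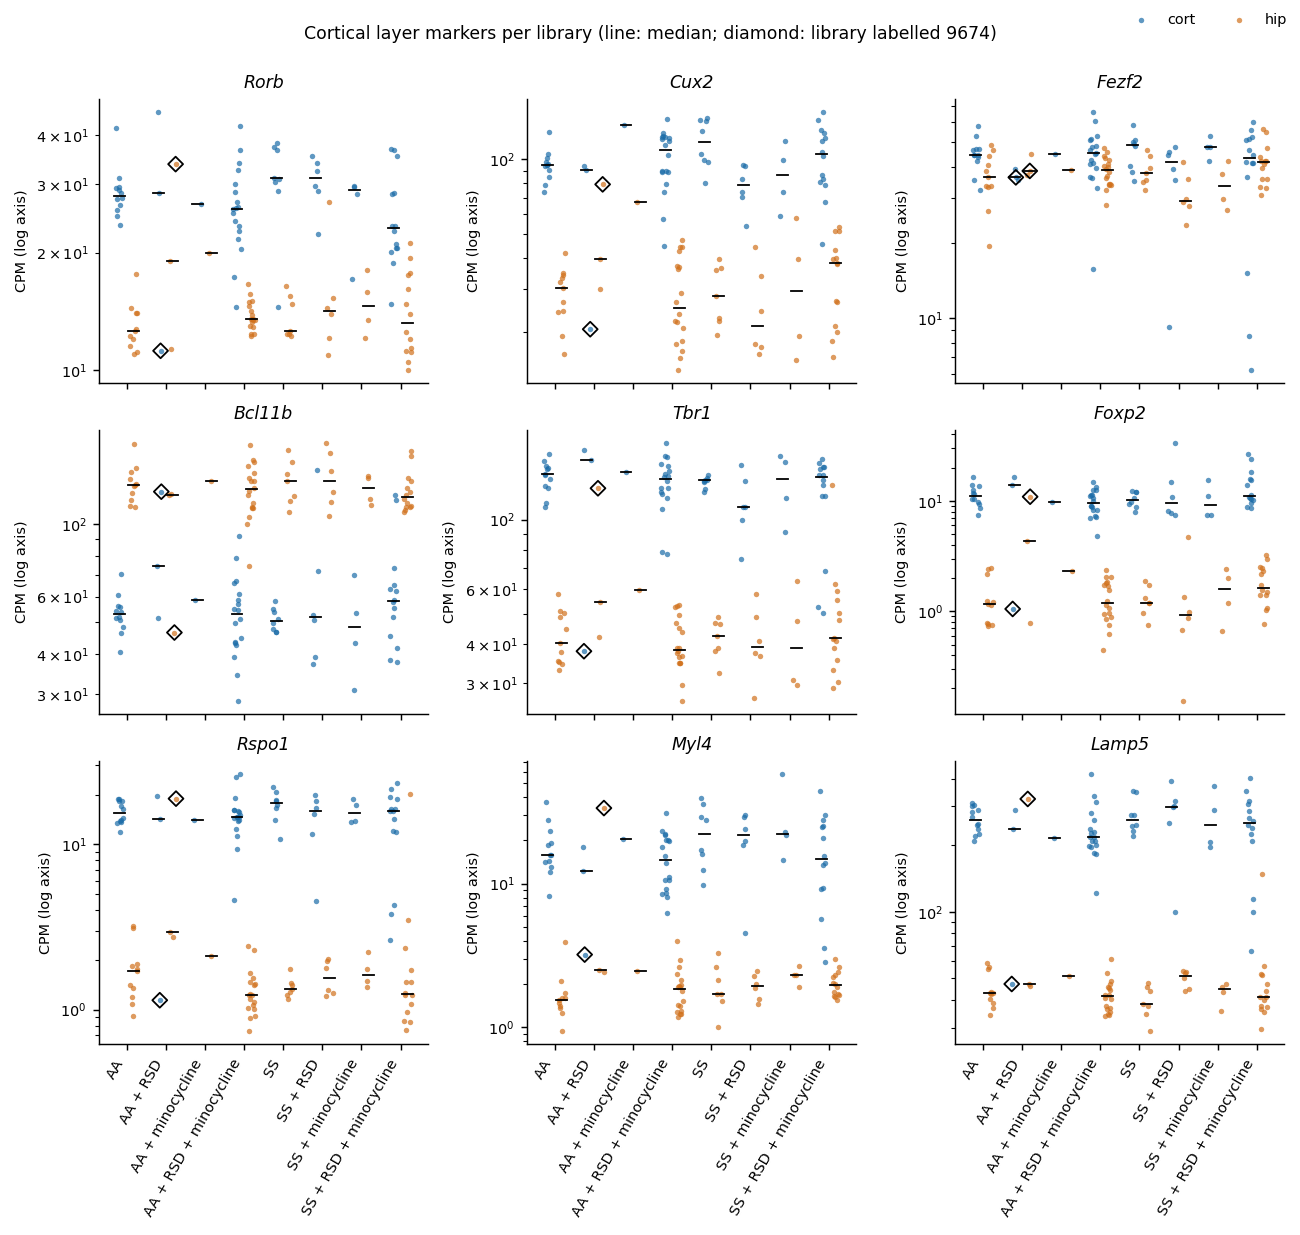
CPM of each member (log axis) in every library, by group, in cort (blue) and hip (orange), with the median of each group as a line. The diamonds are the libraries labelled 9674: its hip library has 18.9 CPM of Rspo1, within the range of cort libraries, and its cort library 1.14 CPM, within the range of hip libraries.

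To compare levels between genes, CPM were divided by the length of annotated exons, giving RPKM. In AA cort, Lamp5 was the most abundant member, with a median of 75.3 RPKM, followed by Tbr1 with 25.4 and Fezf2 with 12.1. The ranges of these 3 members (60.8 to 89.8, 20.1 to 29.5 and 8.74 to 15.7 RPKM) did not overlap with one another. Cux2 followed with 8.36 RPKM and a range of 6.52 to 11.4, which overlapped with that of Fezf2 above it and of Rspo1 (6.21, range 4.74 to 7.56) below it. Bcl11b had 5.62 RPKM and could not be set apart from Rspo1, with a range of 4.31 to 7.49. Rorb (2.52) and Myl4 (2.48) could not be ordered either. Foxp2 was lowest at 0.636 RPKM, and its highest library, at 0.947, stayed under the lowest of every other member.

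In AA hip the order changed. Bcl11b led with a median of 14 RPKM and overlapped with Lamp5 at 12.4. Fezf2 (9.86) came next, overlapping with Lamp5 above it and Tbr1 (7.38) below it. Cux2 had 2.66, Rorb 1.13, Rspo1 0.689, Myl4 0.244 and Foxp2 0.0674 RPKM. The lowest count behind a hip value was 5 reads for Foxp2 and 20 for Rspo1, so that the levels of these genes in hip carry counting error beside the spread between mice.

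The gap between the tissues was also taken within each mouse, cort minus hip in log2 CPM. Over 63 mice, that is without 9674, Cux2, Foxp2, Rspo1, Myl4 and Lamp5 were higher in the cort library of every mouse. The mean gaps were 1.76 ± 0.52 (SD) for Cux2, 3 ± 0.75 for Foxp2, 3.19 ± 0.9 for Rspo1, 3.06 ± 0.84 for Myl4 and 2.46 ± 0.55 for Lamp5. Tbr1 was higher in cort in 62 mice and Rorb in 60. Bcl11b was lower in cort in 62 mice, and Fezf2 was higher in 43 and lower in 20.

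The mouse labelled 9674 stood outside all others for 8 members. Its gap was -3.97 for Rspo1, -3.34 for Myl4, -3.29 for Foxp2 and -2.76 for Lamp5, each with the sign opposite to the other 63 mice. For Bcl11b it was 1.46. Fezf2, the member with nearly the same level in both tissues, had 36.3 CPM in its cort library and 38.5 CPM in its hip library.

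**Figure D2:**
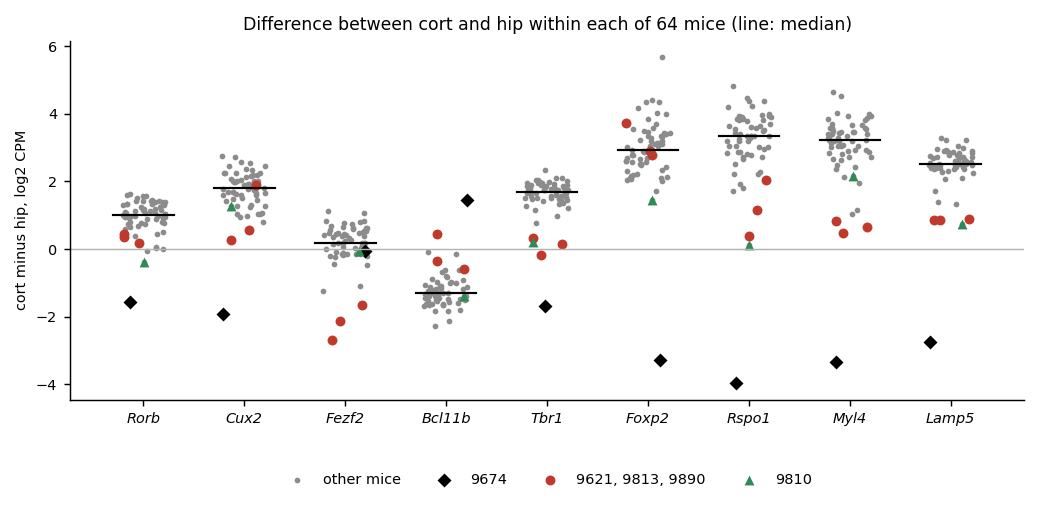
Difference in log2 CPM between the cort and the hip library of each of 64 mice, for each member, with the median as a line. The mouse labelled 9674 (black diamonds) lies below 0 for 8 members and above 0 for Bcl11b. Mice 9621, 9813 and 9890 (red) have the lowest Fezf2 differences, down to -2.68, and 9810 (green) has 0.11 for Rspo1.

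The libraries labelled 9674 gave the following values. In its cort library, Cux2 had 20.6 CPM, Tbr1 38, Foxp2 1.05, Lamp5 47.2 and Rorb 11.2, each the lowest of 66 cort libraries. Bcl11b had 126 CPM, the second highest. In its hip library, Cux2 had 79.2 CPM, Foxp2 10.9, Myl4 33.5, Lamp5 324 and Rorb 33.7, each the highest of 64 hip libraries, and Bcl11b had 46.5, the lowest. The other regional lists moved with them: all 11 hippocampal markers were above the median of cort libraries in its cort library and all 11 below the median of hip libraries in its hip library. Dsp, which is made by dentate granule cells, had 59.2 CPM in its cort library and 0.119 CPM in its hip library. Other lists differed as well: in the cort library 0 of 7 pan-neuronal, 6 of 6 choroid plexus and 1 of 8 striatal markers were above the median, and in the hip library 7 of 7, 0 of 6 and 8 of 8. The choroid plexus markers summed to 5210 CPM in the cort library, and their part in the values of the members was not tested.

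The cort libraries rich in striatal markers had a pattern of their own. Fezf2 had 9.23 CPM in 9621, 8.55 in 9813 and 6.24 in 9890, the lowest values among 66 cort libraries, whose median was 44.6 CPM. Rspo1 had 4.53, 3.81 and 2.62 CPM in the same libraries, against a median of 15.5, and Myl4 had 4.55, 2.83 and 3.58 CPM, against 17.5. Lamp5 had 99.9, 66.8 and 99.9 CPM and Tbr1 74.8, 68.7 and 50.4 CPM, all under the medians of 247 and 134.

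Bcl11b and Foxp2 went up in them instead. Bcl11b had 147 CPM in 9621, 119 in 9813 and 123 in 9890, against a median of 53.5 CPM, and Foxp2 33.5, 23.7 and 26.7 CPM, the highest of all cort libraries, whose median was 10.6. All 8 striatal markers, among them the dopamine receptors Drd1 and Drd2, were above the cort median in each of these libraries. Drd2 had 67.2 CPM in 9621, against a median of 2.51. The 6 choroid plexus markers were above it too in 9813 and 9890, and 4 of the 6 in 9621. The part of striatal or choroid plexus tissue in the levels of the members was not tested, and in bulk RNA fewer cells of a type and less RNA per cell cannot be told apart.

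The cort libraries of 5646 (AA + RSD + minocycline) and 5801 (SS + RSD + minocycline) were next in line. Fezf2 had 15.7 and 15.2 CPM, Rspo1 4.59 and 4.29, and Lamp5 122 and 114 CPM, all among the 6 lowest. The striatal list summed to 529 and 533 CPM, and all 8 of its genes were above the median, as were 6 of the 6 choroid plexus markers in 5646 and 5 in 5801. Foxp2, at 7.18 and 10.1 CPM, was not raised in these libraries.

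**Figure D3:**
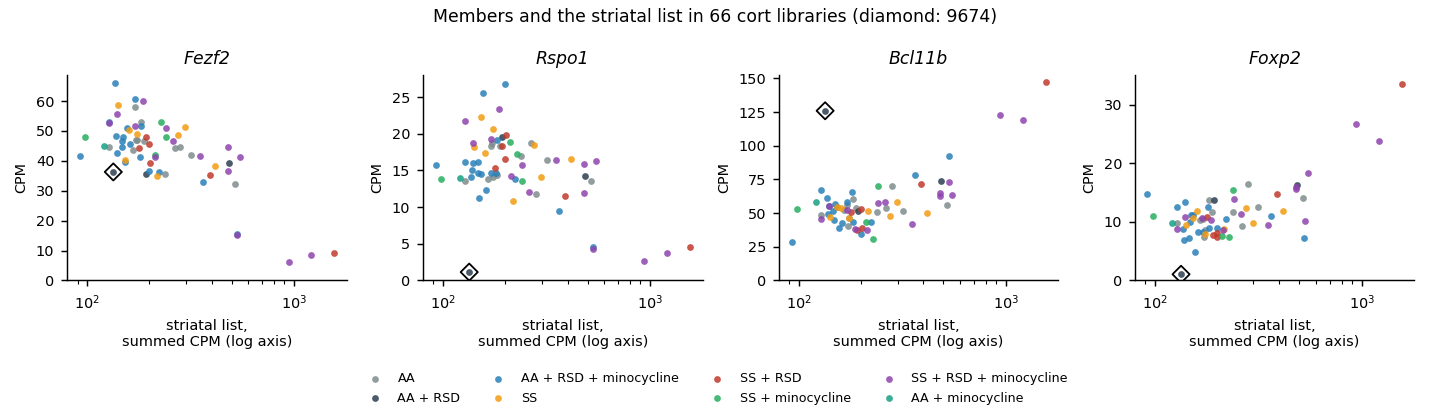
CPM of Fezf2, Rspo1, Bcl11b and Foxp2 in 66 cort libraries against the summed CPM of 8 striatal markers (log axis), coloured by group. The 3 libraries on the right have 6.24 to 9.23 CPM of Fezf2 and 119 to 147 CPM of Bcl11b, while 9674 (diamond) has high Bcl11b at a striatal sum of 134 CPM.

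A hip library labelled 9810 (SS + RSD + minocycline) was mixed for the members. Rspo1 had 20.3 CPM and Tbr1 129 CPM, the highest of 64 hip libraries, whose medians were 1.4 and 41.4 CPM. Lamp5 had 149 CPM and Fezf2 55 CPM, each second highest. Myl4, however, had 2.05 CPM, near its hip median of 1.91. Its hippocampal markers summed to 583 CPM, with Dsp at 60.9 CPM, near the median of 60.8, and Fibcd1, which marks CA fields, at 48.1 CPM against 167.

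**Figure D4:**
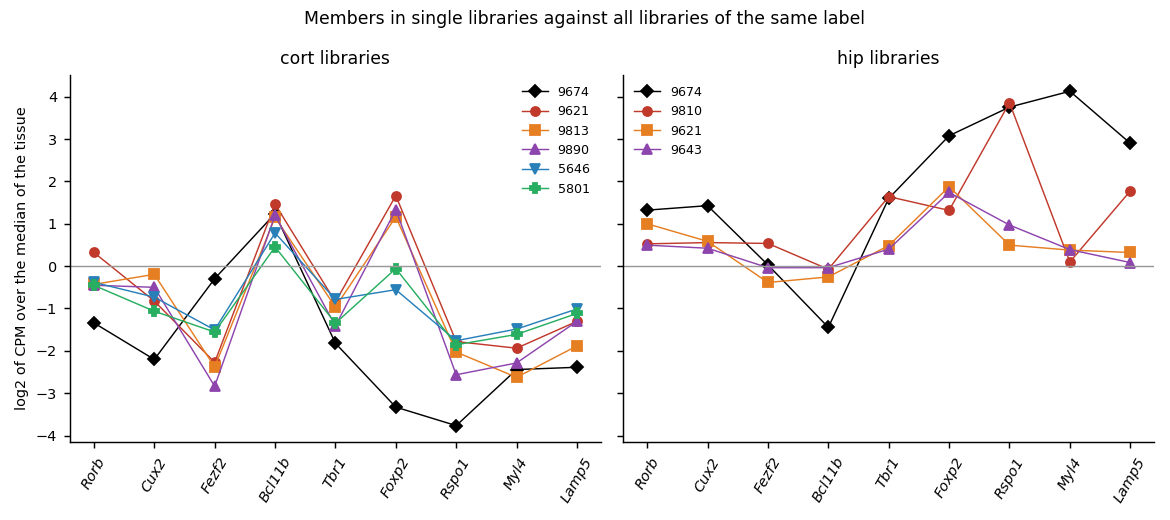
Log2 ratio of the CPM of each member to the median of libraries with the same tissue label, for 6 cort and 4 hip libraries. In cort, 9674 falls furthest for Rspo1 and Foxp2, while 9621 and 9890 fall furthest for Fezf2 and 9813 for Myl4, and all 3 rise for Bcl11b and Foxp2. In hip, 9810 follows 9674 for Tbr1 and Rspo1 but not for Myl4.

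Comparisons between groups asked whether genotype, stress or minocycline changed the members. The first was SS against AA without stress or drug. Cortical levels were alike in value: Tbr1 had 132 ± 5.25 CPM (n = 8) in SS and 137 ± 15.6 CPM (n = 12) in AA mice, Fezf2 46.4 ± 7.9 and 44.9 ± 6.8, and Lamp5 274 ± 50.9 and 262 ± 35.5 CPM. The largest differences in log2 were 0.34 (SE 0.36) for Myl4 and 0.29 (SE 0.18) for Cux2. By edgeR's quasi-likelihood test 0 of 9 members were called at an adjusted p under 0.05, where 0.214% of 22926 genes were. None had an unadjusted p under 0.05 and DESeq2 called 0.

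In hip, SS and AA mice differed by 0.21 in log2 at most upward (Myl4) and by -0.39 downward (Rspo1, 1.37 ± 0.195 CPM, n = 7, against 1.77 ± 0.75 CPM, n = 11). Bcl11b, the most abundant member in hip per length, had 136 ± 21.3 and 134 ± 18.2 CPM, with groups that overlap. 0 members were called by edgeR, 0 had an unadjusted p under 0.05 and DESeq2 called 0 of the 8 to which it gave an adjusted p, beside 0.159% of 23215 genes called by edgeR.

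Among mice with RSD and minocycline, Foxp2 had 13.9 ± 5.62 CPM (n = 14) in SS cort and 9.82 ± 2.57 CPM (n = 18) in AA cort. Its log2 fold change of 0.47 (SE 0.19) gave an adjusted p of 0.423 by edgeR, and it was 0.26 (adjusted p = 0.755) without the 3 cort libraries rich in striatal markers. With mice of number series B alone it was called, at 0.62 (adjusted p = 0.0232). Series B and the others named below are runs of mouse numbers, which the labels do not explain. 0 of 9 members were called, 1 had an unadjusted p under 0.05 (Foxp2), DESeq2 called 0, and 0.624% of genes were called. The striatal list summed to a median of 306 CPM in these SS and 154 CPM in these AA libraries, and 6 of its 8 genes were called higher. Without the 3 libraries 0 of the 8 were called by edgeR, with a median log2 fold change of 0.81. With the summed striatal list as a term of the model, Foxp2 was at 0.02.

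In hip of the same mice, the mean of Rspo1 was 2.79 ± 5.09 CPM for SS and 1.32 ± 0.447 CPM for AA. The fold change of 1.05 in log2 (SE 0.32, adjusted p = 0.0592 by edgeR) fell to 0.11 (adjusted p = 1) without the library labelled 9810. Without that library the SS values end at 3.47 CPM, and the AA values end at 2.41. 0 members were called by edgeR, 1 had an unadjusted p under 0.05 and DESeq2 called 0 of 8, beside 2.74% of genes. With the identical libraries kept, Rspo1 was called (adjusted p = 0.0462), beside 668 genes higher and 31 lower of 23133.

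RSD in SS mice was the second question. In cort, Cux2 had 78.4 ± 15.6 CPM (n = 6) in SS + RSD and 118 ± 26 CPM (n = 8) in SS mice, a log2 fold change of -0.47 (SE 0.2, adjusted p = 0.135 by edgeR). The values ranged from 53.8 to 94.8 and from 80.3 to 147 CPM, so that the groups overlapped. A model of only these groups called Cux2 (-0.51, adjusted p = 0.0287), beside 1248 genes higher and 2100 lower of 17394. Bcl11b at 0.5 and Foxp2 at 0.53 in log2 went to 0.11 and 0.05 without the library labelled 9621. 0 of 9 were called, 1 had an unadjusted p under 0.05 (Cux2) and DESeq2 called 0, where edgeR called 2.57% of 19906 genes, 56 higher and 455 lower. Of these genes 0 were left with number series as a term or without any one of 5391, 9615, 9616 and 9621, and 0 higher and 2 lower without 5354. Without 5400, 57 genes were called higher and 579 lower. Genes at an unadjusted p under 0.05 numbered 5508 with all mice and 4344 to 5148 with 1 SS + RSD mouse left out. With number series as a term they numbered 615. All 6 SS + RSD mice have numbers of series A, and the SS mice numbers of series A (2) and B (6), so that stress and number series overlap in part.

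In hip, Lamp5 had 49.8 ± 4.43 CPM in SS + RSD (n = 6) and 39.5 ± 6.7 CPM in SS mice (n = 7). The log2 difference was 0.43 (adjusted p = 0.365 by edgeR). A model of only these groups called Lamp5 (0.4, adjusted p = 0.0337), beside 105 genes higher and 1357 lower of 18212. The lowest SS + RSD library had 43.8 CPM and the highest SS library 47.8. 0 members were called, 0 had an unadjusted p under 0.05 and DESeq2 called 0, beside 3.11% of 20701 genes, 20 higher and 623 lower. Without any one of 5354, 5391, 9615, 9616 and 9621, or with number series or the fraction of reads off genes as a term, 0 genes were called.

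Minocycline was compared in SS mice without and with RSD. Without RSD, the largest cortical difference was 0.4 in log2 for Myl4, at 29.4 ± 19.6 CPM (n = 4) against 23.3 ± 11.1 CPM (n = 8). In hip it was 0.4 for Rspo1, at 1.71 ± 0.382 against 1.37 ± 0.195 CPM. 0 members were called in either tissue by edgeR, none had an unadjusted p under 0.05 and DESeq2 called 0. Over all genes 0% were called in cort and 0% in hip, with 1406 and 449 genes at an unadjusted p under 0.05 and 0 called by DESeq2. With mice of series B alone, edgeR called 2916 genes higher and 2309 lower in cort, with 2 treated against 6 untreated mice. In hip, with 2 against 5, it called 0 genes. At an unadjusted p under 0.05 there were 7879 genes in cort and 6610 in hip.

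With RSD, SS + RSD + minocycline against SS + RSD mice gave 0 called members. In cort 8.85% of genes were called (1270 higher and 492 lower), but 0 with number series as a term and 3 higher and 1 lower with the fraction of reads off genes as a term. Leaving out 9615 left 729 higher and 134 lower, 9616 left 722 and 147, and 5354 left 896 and 240. The members lay between -0.39 (Rorb, 25.1 ± 6.98 against 30.3 ± 4.66 CPM) and 0.28 (Cux2, 104 ± 31.4 against 78.4 ± 15.6 CPM) in log2. 1 member, Rorb, had an unadjusted p under 0.05, and DESeq2 called 0. In hip 5.96% of genes were called (1010 higher and 224 lower), a count that changed with single mice. It went to 1 higher and 1 lower without 5354, to 6 and 1 without 5391 and to 15 and 1 without 9615. It went to 107 and 22 without 9616, to 333 and 97 without 9621 and to 1062 and 259 without 5400. With number series or the fraction of reads off genes as a term it was 0. Genes at an unadjusted p under 0.05 numbered 5539 with all mice and 4431 to 5537 with 1 SS + RSD mouse left out. With these terms they numbered 2898 and 1453 in turn. Fezf2 had 41.3 ± 7.74 CPM (n = 14) with minocycline and 31.2 ± 6.42 CPM (n = 6) without, a log2 difference of 0.34 (SE 0.12, adjusted p = 0.071 by edgeR), which DESeq2 called (0.35, adjusted p = 0.0364). DESeq2 called 2298 of 20701 genes in this comparison. Fezf2 was the 1 member with an unadjusted p under 0.05 by edgeR. All SS + RSD mice have numbers of series A and all SS + RSD + minocycline mice numbers of series B or C, so that drug and number series cannot be told apart within these groups.

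RSD in AA mice rests on 3 mice, 9643, 9646 and 9674. In hip, Myl4 had 2.49, 2.41 and 33.5 CPM in them, and Rspo1 2.74, 2.95 and 18.9 CPM. Lamp5 had 46, 47.1 and 324 CPM. In each case 9643 and 9646 were within the range of the 11 AA mice, which reached 3.92 CPM for Myl4, 3.19 for Rspo1 and 58.5 for Lamp5, and only 9674 was above it.

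By edgeR's test, 6 members were called higher in AA + RSD than in AA hip, beside 1.19% of 21563 genes. They were Myl4 (log2 fold change 2.97, adjusted p = 0.000521), Rspo1 (2.27, 0.00107), Foxp2 (2.04, 0.00956), Lamp5 (1.69, 0.00228), Tbr1 (0.84, 0.0302) and Rorb (0.76, 0.0117). In this comparison 8 members had an unadjusted p under 0.05. The genes were chosen with the regional signal of the library labelled 9674 known, so nothing is read from the 6 calls about RSD. Without that library, 0 members were called, and 0.0419% of genes. The fold changes then were 0.5 for Myl4, 0.67 for Rspo1, 0.93 for Foxp2, 0.04 for Lamp5, 0.17 for Tbr1 and 0.21 for Rorb, each with an adjusted p of 0.899 or more. Foxp2 had 4.3 CPM in 9643 and 0.777 in 9646, so that its remaining difference came from 1 mouse. In the hip library of 9643, 6 of 6 thalamic markers, 5 of 6 choroid plexus markers and 1 of 11 hippocampal markers were above the hip median, and their part in the Foxp2 value was not tested.

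In cort, 0 of 9 members were called by edgeR between AA + RSD and AA mice, 1 had an unadjusted p under 0.05 (Bcl11b) and DESeq2 called 0, beside 0.853% of 21927 genes. Bcl11b had 51.7, 74.2 and 126 CPM in the 3 mice, against 40.6 to 70.5 in AA mice. Its log2 fold change was 0.68 (adjusted p = 0.188). It was called without 9643 (0.93, adjusted p = 0.0402), beside 338 genes higher and 30 lower of 21916. Without 9674, 0 members and 0% of genes were called.

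Minocycline in AA + RSD mice gave the reverse of these calls from the same 3 libraries, since the AA + RSD mice stand in both comparisons. In hip, 6 members were called lower in AA + RSD + minocycline than in AA + RSD mice by edgeR, beside 2.67% of genes: Myl4 (-2.79 in log2, adjusted p = 9.45e-05), Rspo1 (-2.68, 2.21e-05), Foxp2 (-2.05, 0.00234), Lamp5 (-1.76, 0.000301), Tbr1 (-0.9, 0.00626) and Rorb (-0.66, 0.014). The 18 treated mice had 1.18 to 4.02 CPM of Myl4 and 33.9 to 61.3 CPM of Lamp5, ranges that hold 9643 and 9646 and not 9674. For Rspo1 they had 0.738 to 2.41 CPM, so that 9643 and 9646, at 2.74 and 2.95 CPM, were above them as well. Nothing is read from the 6 calls about minocycline, since the genes were chosen with the regional signal of 9674 known. Without 9674, 0 members were called, with adjusted p from 0.585 to 0.905 for these 6 and 0.0419% of genes called. The differences that were left included -1.08 for Rspo1 (adjusted p = 0.585) and -0.94 for Foxp2 (adjusted p = 0.696). All AA + RSD mice have numbers of series A, and of the treated mice 15 have numbers of series B and 3 of series C. With number series as a term, which is then set by other groups, 6 members were called lower, beside 265 genes higher and 1472 lower of 21563. Lamp5 (adjusted p = 0.0761) and Foxp2 (adjusted p = 0.0646) were no longer called, and Fezf2 (-0.59, adjusted p = 0.0479) and Cux2 (-1.55, adjusted p = 0.0174) were.

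In cort of the same mice, Bcl11b had 53.7 ± 15.6 CPM (n = 18) with minocycline and 84.1 ± 38.2 CPM (n = 3) without, -0.7 in log2 (SE 0.22, adjusted p = 0.056 by edgeR). It was called by DESeq2 (adjusted p = 0.0305), beside 2065 of 21927 genes. By edgeR it was called without 9643 (-0.96, adjusted p = 0.0183), beside 134 genes higher and 507 lower of 21916. Without 9674 it was -0.27 (adjusted p = 0.645). 0 members were called by edgeR and 1 had an unadjusted p under 0.05, beside 3.6% of genes, and without 9674 0% of genes were called.

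SS + RSD against AA + RSD mice gave 3 calls in hip, all lower in SS and all resting on the same library: Myl4 (-2.75 in log2, adjusted p = 0.000298 by edgeR), Lamp5 (-1.5, 0.0138) and Rspo1 (-2.38, 0.0367), where 0.78% of genes were called. All 9 members had an unadjusted p under 0.05, with log2 fold changes from -2.75 to 0.56. DESeq2 called 3 lower and gave 1 member no adjusted p. The 6 SS + RSD mice had 1.46 to 2.48 CPM of Myl4 and 43.8 to 54.1 CPM of Lamp5. Nothing is read from the 3 calls about genotype, since the genes were chosen with the regional signal of 9674 known. Without 9674, 0 members were called, each of these 3 with an adjusted p of 1, and Lamp5 turned to 0.16. Then 0.0171% of genes were called. In cort, 0 members were called by edgeR, 0 had an unadjusted p under 0.05 and DESeq2 called 0, beside 0.493% of genes and 0% without 9674. The largest cortical difference was 0.92 in log2 for Myl4, at 20.9 ± 9.22 against 11.1 ± 7.44 CPM.

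**Figure D5:**
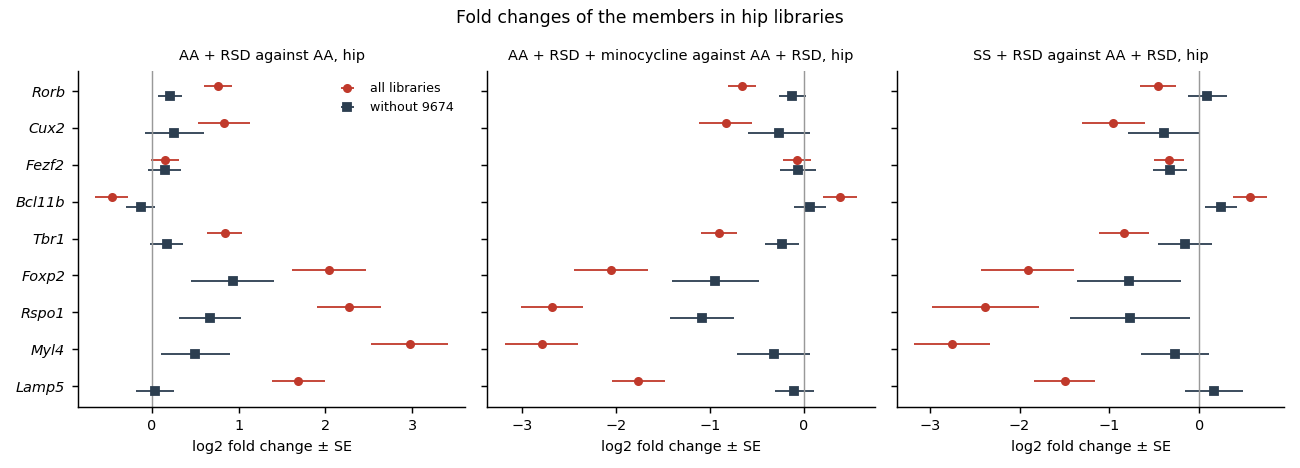
Log2 fold change ± SE (edgeR) of each member in hip libraries for 3 comparisons that hold the AA + RSD mice, with all libraries (red) and without 9674 (dark). For Myl4, the values of 2.97, -2.79 and -2.75 go to 0.5, -0.32 and -0.27.

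Whether a comparison differed between cort and hip was tested as an interaction in 1 model of both tissues. The cort and hip libraries of a mouse were not paired in it. For SS against AA, for SS + RSD against SS and for SS + RSD + minocycline against SS + RSD, 0 of 9 members were called by edgeR, none had an unadjusted p under 0.05 and DESeq2 called 0. Over 24177 genes, 0%, 0% and 0% were called, with 383, 530 and 635 genes at an unadjusted p under 0.05, and DESeq2 called 2, 0 and 1 genes. With the mouse number as a block that pairs the tissues, edgeR called 21 of 24165 genes lower for SS against AA. It called 17 higher for SS + RSD against SS and 0 for SS + RSD + minocycline against SS + RSD, with 0 members in each.

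A list of 18 other cortical layer markers was put through these comparisons, by the same edgeR test. Otof, an upper-layer gene that codes for otoferlin, was called lower in SS + RSD than in SS hip (-1.21 in log2, adjusted p = 0.047). There 3.11% of genes were called, and leaving out any one of 5 SS + RSD mice left 0 genes called. In AA + RSD against AA hip, 2 of 18 were called higher, beside 1.19% of genes. They were Cplx3 (1.43, 0.0445), a complexin, and Cux1 (0.63, 0.0131), a relative of Cux2. With minocycline against AA + RSD in hip, 4 of 18 were called lower, beside 2.67% of genes, and Cplx3 (-1.36, 0.0258) changed most. In cort of the same comparison, Crym (-0.93, 0.00843), a thyroid hormone-binding protein, was called lower, beside 3.6% of genes. None of the calls that involve AA + RSD mice held without 9674, where the adjusted p of Crym was 0.562 and that of Cplx3 0.899 and 0.699. In the other 12 comparisons, 0 of 18 were called by edgeR. There, 0 to 10 of the 18 had an unadjusted p under 0.05 in a comparison, and DESeq2 called 1 in SS + RSD against AA + RSD hip and 0 in the rest.

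The median log2 fold change of the 18 genes was 0.39 in AA + RSD against AA hip and 0.12 without 9674, beside -0.01 and -0.02 over all genes. Summed over the 18 genes, the levels of the tissues overlapped, at 721 to 1107 CPM in cort and 596 to 977 CPM in hip. This sum is not set against single members, which were chosen with their tissue difference known.

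The genes most like each member were sought among 13395 genes over the 66 cort libraries, by Pearson's r of log2 CPM centred on each group's mean, as a description with no test. All of these points share their libraries, so that tissue composition and depth enter every r. Etv5 (0.903) was among the nearest 2 of Tbr1. Dkk3 (0.922) and Ovol2 (0.904) were nearest to Fezf2, Igfbp6 (0.922) and Efhd2 (0.921) to Lamp5, and Sowahb (0.916) and A830009L08Rik (0.9) to Rspo1. Kctd12 (0.896) and Plppr4 (0.89) were nearest to Bcl11b, Vip (0.856) and Myh3 (0.829) to Myl4, Mei1 (0.841) and Mtcl1 (0.839) to Cux2, Sema3a (0.798) and Prkar2b (0.779) to Foxp2, and Kcnv1 (0.677) to Rorb.

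Without 9674 and the 3 libraries rich in striatal markers, Dkk3 (0.839) stayed nearest to Fezf2, and Kctd12 (0.826) and Vip (0.756) stayed among the nearest 2 of Bcl11b and Myl4. For Cux2, Foxp2, Rspo1, Lamp5 and Rorb both nearest genes were replaced. Pvalb (0.88) was then nearest to Lamp5, and Cyp39a1 (0.651) and Cux1 (0.626) were nearest to Rorb. Among the members themselves, Rspo1 and Lamp5 had the highest r over all, 0.868, and without those libraries it was 0.704, with Fezf2 and Rspo1 highest at 0.708. Bcl11b and Rspo1 had the lowest r, -0.769 over all and -0.599 without those libraries.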

How the data were processed

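Bulk RNA of cortex and hippocampus was measured in 134 libraries with a known group, 1 library with conflicting tissue labels was not used, and 3 columns were not used. The authors aligned single-end reads of stranded poly(A) libraries to GRCm39 with STAR and deposited raw read counts per GENCODE gene. The strand setting is not given in the sources used here. Of the members, only Myl4 overlaps genes of the other strand (5.53% of exonic bases). Members and lists were matched by Ensembl identifier (54749 of 55416 in GENCODE M39) and were chosen with earlier results of these data known. Summary lines that name no gene (for reads outside annotated genes, a median of 8.25% in cort and 7.59% in hip) stayed out of library sizes.

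The fits used edgeR 4.0.16 (filterByExpr with minimum count 10 and minimum total 15, TMM, quasi-likelihood test), Benjamini-Hochberg adjusted over all genes, with a threshold of 0.05. Comparisons within a genotype used a model of that genotype's groups, and those between genotypes a model of all groups. Log2 CPM used a prior count of 2. The fits were tested on simulated data. All ran in R 4.3.3. Alternatives were RLE factors, DESeq2 1.42.0, no filter, fewer groups, further terms (number series, regional score, striatal list, reads outside genes) and libraries left out. The striatal term and leaving out 9810, mouse 9674 from the interactions or the libraries over 900 CPM of striatal markers were chosen after seeing the data. Named genes are the members, up to 2 called genes of 18 other layer markers per comparison, and the 2 genes most like each member with mean log2 CPM of at least 1. Some genes that this rule names are not reported here. P-values set a difference between groups against the spread between libraries within groups, estimated over all groups of the model.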

Additional observations from a re-analysis of the deposited data

Results flagged for a closer look

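In groups of 4 to 10 libraries, 54 sets of values of a member were searched for a library far from the rest. The sets share their libraries and are not independent, so no chance rate is set beside the count. 7 such values were found. Of these, 5 belong to 1 mouse, 9621 (SS + RSD). In its cort library Fezf2 had 9.23 CPM (35.3 to 48.1 in the other 5), Bcl11b 147 (37.2 to 71.8) and Foxp2 33.5 (7.42 to 14.8), beside 1560 CPM of the striatal list. In its hip library Rorb had 27 CPM (10.9 to 15.3 in the others) and Foxp2 4.73 (0.155 to 1.36), with 95.6 CPM of the striatal list and 722 CPM of the hippocampal list, each the lowest of the 6 SS + RSD hip libraries. Whether the lists have a part in these values was not tested.

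The other two concern Rorb in cort. It had 14.5 CPM in SS mouse 9822, where the other 7 had 28.8 to 38.1 CPM, and 17.1 CPM in SS + minocycline mouse 9889, where the other 3 had 28.3 to 29.7 CPM. The summed striatal list was 141 CPM in 9822 and 229 CPM in 9889, under and above the cort median of 190.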

How the results depend on the processing

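Each of 20 results is a number of members, and 271 alternative values were set against them. The number was equal or near to the main one in 241, lower in 17 and higher in 13. Most of the 20 main numbers were 0, so that most of the equal values set 0 beside 0. They say little about the comparisons with calls. Which members were called, and in which direction, was not part of this count. In hip, the number of members called in AA + RSD against AA mice went from 6 to 3 with DESeq2, which gave 3 members no adjusted p, and to 3 with number series as a term. It went to 7 with the fraction of reads off genes as a term (Cux2 gained, adjusted p = 0.0367) and to 5 without the libraries labelled 5844, 5853, 7078 and 9631 (Tbr1 lost, adjusted p = 0.0774). It went to 0 with the regional score or the striatal list as a term, in a model of only these groups and with series A only, and leaving out 1 mouse gave 0 to 6. For AA + RSD + minocycline against AA + RSD it went from 6 to 3 with DESeq2 (3 without an adjusted p), to 0 with the regional score or the striatal list, and to 0 to 7 leaving out 1 mouse. For SS + RSD against AA + RSD it went from 3 to 0 with the regional score, the striatal list, a model of only these groups or series A only, to 5 without 9810, and to 0 to 7 leaving out 1 mouse. The 0 of each comes without 9674, where Lamp5 in SS + RSD against AA + RSD turned to 0.16 (leaving out 1 mouse gave -1.93 to 0.16). Elsewhere 0 calls became 1 in these cases: in cort, Foxp2 in SS + RSD + minocycline against AA + RSD + minocycline with series B only, Cux2 in SS + RSD against SS in a model of only these groups, and Bcl11b in AA + RSD + minocycline against AA + RSD with DESeq2. Leaving out 1 mouse gave 0 to 1 in the latter comparison and in AA + RSD against AA cort. In hip they were Rspo1 in SS + RSD + minocycline against AA + RSD + minocycline with the striatal list, without the libraries labelled 5844, 5853, 7078 and 9631 or with identical libraries kept, Lamp5 in SS + RSD against SS in a model of only these groups, and Fezf2 in SS + RSD + minocycline against SS + RSD with DESeq2. With all groups in place of AA mice, 0 members had every cort library above every hip library. The cause of these changes was not tested. With the replicate block, in which the mouse number pairs the tissues, 0 members were called in each of the 3 interactions, and 7 members were higher in cort in AA mice.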
